A study of Mus musculus with 6 samples.

Results

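The interferon regulatory factors are a family of transcription factors that share an N-terminal DNA-binding domain and recognise GAAA-containing elements in interferon genes and interferon-responsive genes. Irf1, Irf2, Irf3, Irf4, Irf5, Irf7, Irf8 and Irf9 were chosen by gene symbol, and all 8 were found among the 27240 genes of the deposited table, each under 1 gene ID. They were measured by poly(A) RNA sequencing in mouse primary peritoneal macrophages, phagocytes of the abdominal cavity. There were 3 libraries from knockout (KO) cells and 3 from wild-type (WT) cells, and the cells of every library had been treated with oxLDL, oxidised low-density lipoprotein, a form that scavenger receptors of macrophages bind. The sample titles read LDL and the treatment label oxLDL. The labels call the genotypes only KO and WT, and the series title names the kinase DCLK1. They do not give the deleted exons, the strain, age or sex of the mice, whether the deletion covers all cells, or the dose and duration of oxLDL, and no cells without oxLDL were analysed here. Whether replicates are separate animals or cultures is not labelled either, and the spread behind each p-value is that of these libraries alone and may be technical.

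In macrophages the family divides by role. IRF3 and IRF7 are activated by the kinases TBK1 and IKKε below nucleic acid sensors and switch on interferon genes, and IRF5 acts below Toll-like receptors and MyD88. IRF9 is the DNA-binding part of the complex ISGF3, through which secreted type I interferon induces its target genes. IRF1 is induced by interferon-gamma and by NF-κB, IRF2 binds the same elements and mostly opposes it, and IRF4 and IRF8 act with the ETS factor PU.1 on genes of myeloid and lymphoid cells.

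Library totals lay between 72559141 and 74172804 counts in KO and between 68053008 and 79090732 counts in WT. The targeted gene Dclk1 had 5.55, 5.89 and 5.15 CPM (a gene's counts relative to the scaled library total) in KO against 7.27, 6.70 and 7.43 CPM in WT (log2 fold change -0.37, edgeR adjusted p = 0.332). KO was lower without overlap, but so were 8.89% of all genes tested, and the deleted exons are not given. The values of Dclk1 thus check the labels only weakly. The 8 markers that define macrophages differed widely in level. Adgre1 was high, at 1016 ± 13.4 CPM in KO and 1057 ± 31.99 CPM in WT (SD, n = 3 each). Cd68 was high as well, at 1993.2 ± 41.6 CPM in KO and 1993.9 ± 77.2 CPM in WT. Fcgr1 was at 20.4 ± 1.91 CPM in KO and 18.5 ± 2.76 CPM in WT. Gata6 was low, at 2.01 ± 0.531 CPM in KO and 2.67 ± 0.220 CPM in WT. WT replicate 1 lay farthest out on the first principal component (25.9% of the variance), at -60.7, against 10.9 to 37.3 for the KO libraries and -16.2 and -5.94 for the other WT libraries. Over all 16239 genes tested, 11 (0.0677%) passed an adjusted p of 0.05, and the median log2 fold change was -0.0019.

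No member passed that threshold in the fit to all 6 libraries. All 8 passed the filter on low counts. At an unadjusted p under 0.05 there were 4 members, Irf1, Irf5, Irf8 and Irf9, all lower in KO, where 5.71% of all genes tested were lower at that level. The groups did not overlap for Irf1 and Irf9, both lower in KO, where 8.89% of all genes were lower without overlap. The median log2 fold change of the 8 members was -0.17. Values lay below 0 for 7 members and above 0 for Irf7, where 50.5% of all genes tested lay below 0. Without WT replicate 1 the values of Irf2 and Irf4 lay above 0 as well (0.0161 and 0.17).

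The upstream sequences of 4 members are shown because these genes span the range of values that follows: Irf1 and Irf8 with the most negative fitted changes, Irf2 with a value near 0 and Irf7 with the positive one. Each is the 250 bases before the RefSeq transcription start (GRCm38.p6), 5′ to 3′ on the strand of the gene. Capitals mark matches, on either strand, to the ISRE core bound by this family (GAAA, any 2 bases, GAAA), the interferon-gamma-activated GAS element TTCNNNGAA, and the NF-κB consensus. No matches to different motifs overlapped in these windows.
Irf1 (chr11:53769764-53770013, plus strand): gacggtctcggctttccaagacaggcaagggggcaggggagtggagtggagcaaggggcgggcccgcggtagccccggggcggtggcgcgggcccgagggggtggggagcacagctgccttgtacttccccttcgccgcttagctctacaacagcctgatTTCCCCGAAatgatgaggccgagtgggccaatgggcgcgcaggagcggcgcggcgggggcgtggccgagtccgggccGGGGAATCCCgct
Irf8 (chr8:120736108-120736357, plus strand): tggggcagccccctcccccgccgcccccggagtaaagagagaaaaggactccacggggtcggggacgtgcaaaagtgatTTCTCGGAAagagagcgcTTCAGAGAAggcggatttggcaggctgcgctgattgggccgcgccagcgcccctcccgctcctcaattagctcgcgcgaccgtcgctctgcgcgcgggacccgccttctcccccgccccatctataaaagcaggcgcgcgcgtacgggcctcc
Irf2 (chr8:46739495-46739744, plus strand): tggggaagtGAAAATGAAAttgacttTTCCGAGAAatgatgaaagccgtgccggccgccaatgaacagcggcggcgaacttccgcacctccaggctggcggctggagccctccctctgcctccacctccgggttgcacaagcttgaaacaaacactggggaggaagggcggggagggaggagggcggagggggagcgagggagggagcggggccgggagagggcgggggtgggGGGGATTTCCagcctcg
Irf7 (chr7:141266425-141266674, minus strand): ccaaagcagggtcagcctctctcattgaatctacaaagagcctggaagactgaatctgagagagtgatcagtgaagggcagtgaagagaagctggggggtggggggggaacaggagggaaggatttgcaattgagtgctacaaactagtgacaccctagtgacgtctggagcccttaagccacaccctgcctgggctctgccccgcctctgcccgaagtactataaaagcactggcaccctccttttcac
The Irf1 window held 1 GAS match, TTCCCCGAA at -90 to -82 from the start, and 1 NF-κB match, GGGGAATCCC at -13 to -4, which reads as a match on both strands. In the Irf8 window there were 2 GAS matches, TTCTCGGAA at -171 to -163 and TTCAGAGAA at -153 to -145. That of Irf2 held 1 match to each motif, GAAAATGAAA, TTCCGAGAA and GGGGATTTCC. None of the 3 motifs was found in the Irf7 window or in those of Irf3, Irf4, Irf5 and Irf9, or at the second start sites that RefSeq lists for Irf1, Irf8 and Irf9. Of 32851 windows of the same length upstream of RefSeq starts, 2.98% held the ISRE core, 7.02% the GAS element and 7.25% the NF-κB consensus. The matches describe the letters of the windows, and binding was not measured.

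Irf1 (ENSMUSG00000018899, chromosome 11, 53770014 to 53777323, plus strand) encodes the activator of many interferon-gamma-responsive genes. Its counts were 5729, 7153 and 5952 in KO against 14079, 12073 and 11118 in WT, or 76.6, 97.8 and 81.3 CPM in KO against 207, 162 and 141 CPM in WT. Every KO value lay below every WT value, and WT replicate 1 was the highest. The KO mean was 85.2 ± 11.1 CPM and the WT mean 170.3 ± 33.6 CPM (SD, n = 3 each), a fold of 0.501 with a 95% interval of 0.393 to 0.638. Of 16239 genes it ranked 46 by p-value and was short of the threshold once adjusted (log2 fold change -0.998, SE 0.149, edgeR adjusted p = 0.0756). It passed with DESeq2 (adjusted p = 2.3e-11), a method that called 2.81% of all genes. Leaving out 1 library at a time gave log2 fold changes of -1.12 to -0.83 (edgeR adjusted p = 0.104 to 0.262), and the value nearest 0 was that without WT replicate 1.

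Irf2 (ENSMUSG00000031627, chromosome 8, 46739732 to 46847458, plus strand), the counterpart that binds the same elements, had 41.3, 44.0 and 41.5 CPM in KO against 45.5, 43.2 and 40.3 CPM in WT. The groups overlapped and their means lay within 1 CPM of each other, at 42.3 ± 1.54 CPM in KO and 43.0 ± 2.60 CPM in WT (SD, n = 3 each). The log2 fold change was -0.03 with a 95% interval of -0.18 to 0.13 (edgeR adjusted p = 0.929). Because a ratio of 2 genes in 1 library does not depend on how libraries are scaled, the counts of Irf1 were divided by those of Irf2. The quotient was 1.86, 2.22 and 1.96 in KO against 4.55, 3.76 and 3.50 in WT, without overlap. Its mean was 2.01 ± 0.188 in KO and 3.94 ± 0.544 in WT, and the exact two-sided permutation test gave p = 0.1, the smallest that 3 against 3 allows.

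**Figure D1:**
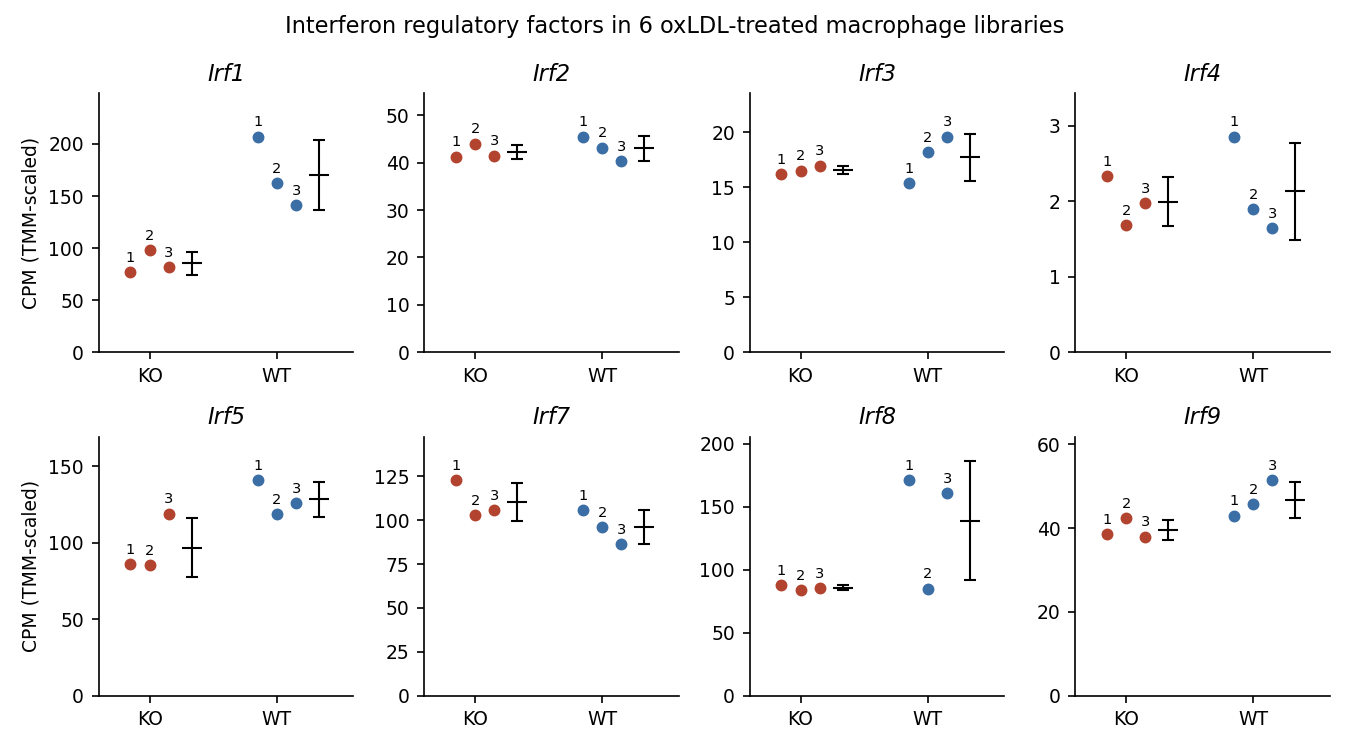
CPM of each family member in the 3 KO libraries (left, red) and the 3 WT libraries (right, blue), with the replicate number above each point and the mean with its SD beside the points. Irf1 shows no overlap between groups, and Irf8 shows WT replicate 2 at the level of the KO libraries.

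Irf8 (ENSMUSG00000041515, chromosome 8, 120736358 to 120756694, plus strand) encodes the PU.1 partner required for monocyte and dendritic cell development. Its level was 87.9, 83.7 and 85.5 CPM in KO against 171, 84.8 and 161 CPM in WT. WT replicate 2 lay among the KO libraries, and the other two WT libraries were about 2-fold higher. The log2 fold change over all libraries was -0.70 with a 95% interval of -1.24 to -0.15 (SE 0.233, edgeR adjusted p = 0.355). Without WT replicate 2 it was -0.95 and passed (edgeR adjusted p = 0.0033), in a fit that called 0.0946% of genes lower, and without any other library it did not pass. The highest WT value was 2.02 times the lowest, while the median of that quotient was 1.10 over 6418 genes of at least 20 CPM. In WT, 108 of these genes (1.68%) had a quotient at least as large. In KO the quotient of Irf8 was 1.05. The counting method is not stated, and its part in the step between WT libraries was not tested.

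Irf4 (ENSMUSG00000021356, chromosome 13, 30749226 to 30766976, plus strand), the close relative of Irf8 that is needed for plasma cells and for alternative macrophage activation, was the weakest member. It had 174, 123 and 144 counts in KO against 194, 141 and 129 counts in WT. Its values were 2.33, 1.68 and 1.97 CPM in KO against 2.85, 1.90 and 1.64 CPM in WT, so the groups overlapped. The log2 fold change was -0.10 with a wide interval of -0.72 to 0.53 (edgeR adjusted p = 0.939). With this spread between libraries of a group, differences within that interval could not be told apart.

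Irf5 (ENSMUSG00000029771, chromosome 6, 29526625 to 29541871, plus strand), which acts below Toll-like receptors, had 85.9, 85.2 and 119 CPM in KO against 141, 118 and 126 CPM in WT. KO replicate 3 was slightly above WT replicate 2, and KO replicates 1 and 2 lay below all WT libraries. The means were 96.6 ± 19.2 CPM in KO and 128 ± 11.4 CPM in WT (SD, n = 3 each), with a log2 fold change of -0.41, a 95% interval of -0.73 to -0.09 and an edgeR adjusted p of 0.352. DESeq2 called it (adjusted p = 0.0300), and edgeR did not after any 1 library was left out (log2 fold change -0.58 to -0.33, adjusted p = 0.183 to 0.605). In the annotation 411 exonic bases (14.2% of the exons of Irf5) belong to Tnpo3 on the opposite strand as well, and the sources do not state whether counting used strand. Tnpo3 was at 84.5, 69.9 and 82.5 CPM in KO against 67.6, 75.2 and 74.5 CPM in WT, and its part in the Irf5 values was not tested.

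Irf3 (ENSMUSG00000003184, chromosome 7, 44997648 to 45002848, plus strand), which needs no induction before it is phosphorylated, had 16.2, 16.5 and 16.9 CPM in KO against 15.4, 18.2 and 19.6 CPM in WT. The narrow KO range lay inside the WT range. Its log2 fold change was -0.10, with a 95% interval of -0.33 to 0.14 (edgeR adjusted p = 0.797). Irf7 (ENSMUSG00000025498, chromosome 7, 141262706 to 141266481, minus strand), the form that interferon itself induces, was the only member with a fitted value above 0. It had 123, 103 and 106 CPM in KO against 106, 96.1 and 86.3 CPM in WT. KO replicate 2 lay below WT replicate 1, so the groups overlapped. The log2 fold change was 0.20 with a 95% interval of -0.02 to 0.42 (edgeR adjusted p = 0.520), and it stayed above 0 without each library (0.12 to 0.28). The count of Irf7 over that of Irf3 was 7.58, 6.23 and 6.24 in KO against 6.87, 5.29 and 4.40 in WT, with overlap (exact two-sided permutation test, p = 0.3).

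Irf9 (ENSMUSG00000002325, chromosome 14, 55603571 to 55610030, plus strand), the DNA-binding subunit of ISGF3, had 38.5, 42.4 and 37.9 CPM in KO against 43.0, 45.7 and 51.4 CPM in WT. Each KO value lay below each WT value, by a small margin between KO replicate 2 and WT replicate 1. The means were 39.6 ± 2.42 CPM in KO and 46.7 ± 4.31 CPM in WT (SD, n = 3 each), or a fold of 0.848 with a 95% interval of 0.741 to 0.969 (log2 fold change -0.24, edgeR adjusted p = 0.370). Leaving out 1 library at a time gave -0.30 to -0.16 (edgeR adjusted p = 0.395 to 0.633).

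**Figure D2:**
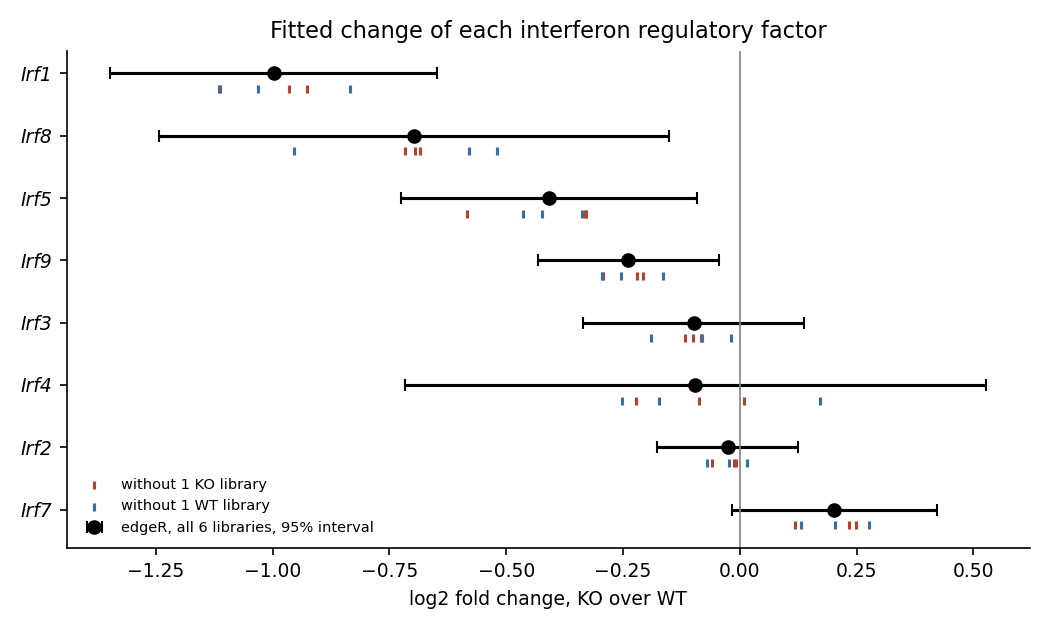
Log2 fold change of each member, KO over WT, with its 95% interval (black) and the values after leaving out 1 KO library (red ticks) or 1 WT library (blue ticks). The intervals of Irf1, Irf8, Irf5 and Irf9 lie below 0, and those of Irf3, Irf4, Irf2 and Irf7 include 0.

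Levels between members were compared per length, in the FPKM values deposited by the authors. In KO the order was Irf5 (30.0 ± 5.98 FPKM), Irf7 (26.4 ± 2.62 FPKM), Irf1 (19.3 ± 2.51 FPKM), Irf8 (10.95 ± 0.271 FPKM), Irf9 (6.62 ± 0.399 FPKM), Irf2 (5.15 ± 0.184 FPKM), Irf3 (4.32 ± 0.0985 FPKM) and Irf4 (0.365 ± 0.0606 FPKM), with SD and n = 3. Only Irf5 and Irf7 had overlapping ranges as neighbours in that order. In WT it was Irf5 (39.5 ± 3.67 FPKM), Irf1 (38.3 ± 7.63 FPKM), Irf7 (22.7 ± 2.31 FPKM), Irf8 (17.6 ± 6.05 FPKM), Irf9 (7.75 ± 0.721 FPKM), Irf2 (5.20 ± 0.318 FPKM), Irf3 (4.58 ± 0.549 FPKM) and Irf4 (0.387 ± 0.118 FPKM). There the ranges of Irf5 and Irf1, of Irf7 and Irf8, and of Irf2 and Irf3 overlapped. Irf1 thus stood below Irf7 in KO and above it in WT, with separate ranges in both groups. The 8 members summed to 101, 101 and 108 FPKM in KO against 154, 124 and 130 FPKM in WT. Of that sum Irf1 made up 18.8% ± 2.77 in KO and 28.0% ± 3.14 in WT, and Irf7 made up 25.6% ± 3.07 in KO and 16.7% ± 1.36 in WT (SD, n = 3 each). Irf5 made up 29.0% ± 4.58 in KO and 29.1% ± 0.807 in WT. A share also depends on the sum, which was lower in KO, and the FPKM of Irf7 itself overlapped between groups.

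**Figure D3:**
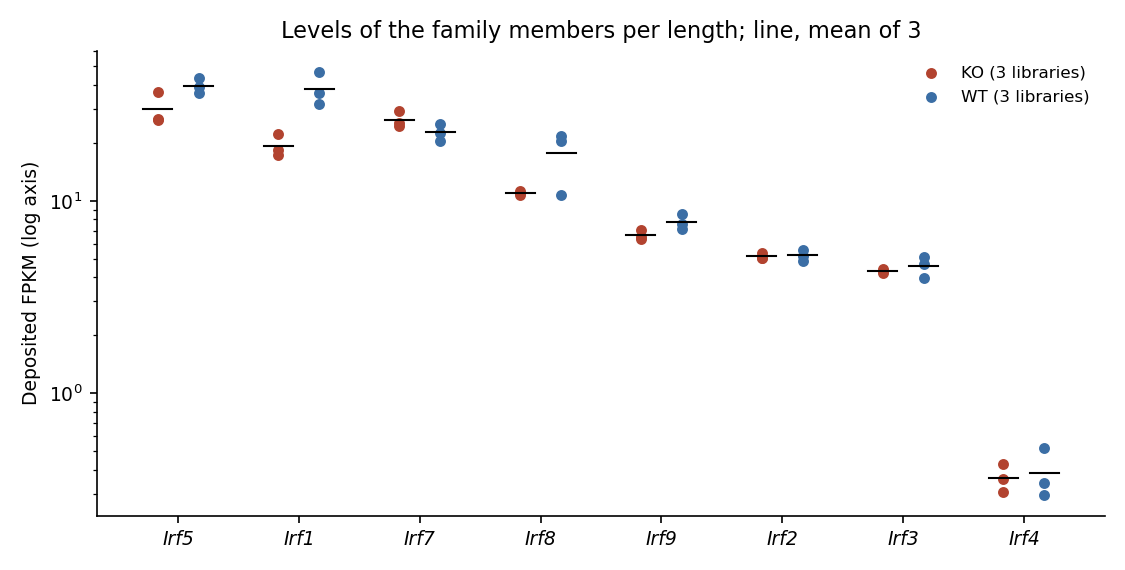
Deposited FPKM of the members on a log axis, in the 3 KO libraries (red, left of each pair) and the 3 WT libraries (blue), with a line at each mean. Irf4 lies below 1 FPKM in all 6 libraries, and Irf5, Irf1 and Irf7 lie above 17 FPKM.

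Other genes around the family were described by lists. Of the genes for IRF2-binding corepressors, Irf2bp1 was at 17.7 ± 1.49 CPM in KO and 19.3 ± 0.684 CPM in WT (edgeR adjusted p = 0.669) and Irf2bpl at 43.7 ± 3.85 CPM in KO and 41.8 ± 3.36 CPM in WT (edgeR adjusted p = 0.856). None of the 3 tested genes of that list passed, and their median log2 fold change was -0.01. Of 8 interferon genes listed, 2 were in the table, both at or near 0. Ifnb1 had 8 counts in KO replicate 1 and none in the other libraries, and Ifng was at 0.144 ± 0.0896 CPM in KO and 0.357 ± 0.333 CPM in WT (edgeR adjusted p = 0.690). At these counts Ifnb1 was not tested. The 95% interval of the log2 fold change of Ifng was wide, at -3.42 to 0.84, and differences within it could not be told apart.

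No gene of the receptor, STAT, sensor, kinase and partner lists passed the threshold over all genes. Of 7 interferon receptor and JAK kinase genes, 6 had values below 0 and 3 lay below WT without overlap in KO (median log2 fold change -0.08), where 50.5% of all genes were below 0 and 8.89% lower without overlap. Jak2, a kinase of the interferon-gamma receptor, was at 75.4, 75.2 and 76.6 CPM in KO against 97.9, 85.9 and 95.1 CPM in WT (log2 fold change -0.30, edgeR adjusted p = 0.127). Its receptor partner Ifngr2 was at 173 ± 1.62 CPM in KO and 185 ± 2.58 CPM in WT (edgeR adjusted p = 0.433). Stat2, a partner of IRF9 in ISGF3, was at 39.1 ± 3.77 CPM in KO and 46.6 ± 5.26 CPM in WT, with overlap (edgeR adjusted p = 0.446).

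Of 18 sensors and adaptors upstream of IRF3 and IRF7, 12 had a value below 0 (median -0.07 on the log2 scale). The 2 of smallest p were Ticam2, an adaptor of Toll-like receptor 4, at 66.5 ± 2.65 CPM in KO and 77.3 ± 2.87 CPM in WT (edgeR adjusted p = 0.198), and Ifih1, the sensor MDA5, at 66.3 ± 2.49 CPM in KO and 76.7 ± 3.95 CPM in WT (edgeR adjusted p = 0.243). Tlr7, a sensor of single-stranded RNA, passed only without WT replicate 1 (log2 fold change 1.56, higher in KO, edgeR adjusted p = 0.0025), in a fit that called 0.0414% of genes. Kinases and scaffolds that act on IRF3, IRF5 and IRF7 had a median of -0.08 over 7 genes. Ikbke was at 116 ± 3.49 CPM in KO and 126 ± 4.93 CPM in WT (edgeR adjusted p = 0.452), and Tbk1 at 144 ± 4.59 CPM in KO and 153 ± 11.7 CPM in WT (edgeR adjusted p = 0.657). The 8 partners of IRF4 and IRF8 had a median of -0.20, 5 of them below WT in KO and 2 above, without overlap, where 8.89% of all genes were lower and 8.68% higher in that way. The AP-1 genes Junb and Jund were at 40.7 ± 1.40 and 36.1 ± 0.935 CPM in KO and at 49.2 ± 1.74 and 42.5 ± 1.252 CPM in WT (edgeR adjusted p = 0.134 and 0.171). Spi1, which encodes PU.1 and was chosen for mention because it is the shared partner of both factors, was at 191 ± 0.883 CPM in KO and 188 ± 2.76 CPM in WT (edgeR adjusted p = 0.850).

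Known targets of IRF1 and interferon-gamma all had a fitted value below 0, 24 of 24 genes, where 50.5% of all genes tested were below 0. None passed the threshold over all genes, 18 lay below WT without overlap in KO (8.89% of all genes did), and the median log2 fold change was -0.60. Psmb10, an immunoproteasome subunit gene, was at 67.9, 71.4 and 68.0 CPM in KO against 101, 88.2 and 95.7 CPM in WT (log2 fold change -0.46, edgeR adjusted p = 0.0756). It passed without WT replicate 2 (edgeR adjusted p = 0.0457). Gbp2, whose product is an interferon-induced GTPase, had 252, 265 and 217 CPM in KO against 513, 370 and 405 CPM in WT (log2 fold change -0.81, edgeR adjusted p = 0.0796). Without WT replicate 1 the median of the list was -0.47, and without WT replicate 2 it was -0.72.

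Of 20 targets of ISGF3 none passed, 18 had a value below 0, and without overlap 12 lay below WT in KO and 1 above (8.89% and 8.68% of all genes). The median log2 fold change of this list was -0.26. Ifit1, an antiviral effector gene, was at 28.7 ± 0.958 CPM in KO and 40.5 ± 5.07 CPM in WT (edgeR adjusted p = 0.115). Xaf1 was at 11.2 ± 0.759 CPM in KO and 15.3 ± 0.913 CPM in WT (edgeR adjusted p = 0.134). Without WT replicate 1 the median of this list was -0.18. Both target lists were written with earlier results of these data known, so their direction is a description only. DESeq2 called 17 of the 24 IRF1 and interferon-gamma targets and 7 of the 20 ISGF3 targets, all lower in KO. It called 1.66% of all genes lower.

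**Figure D4:**
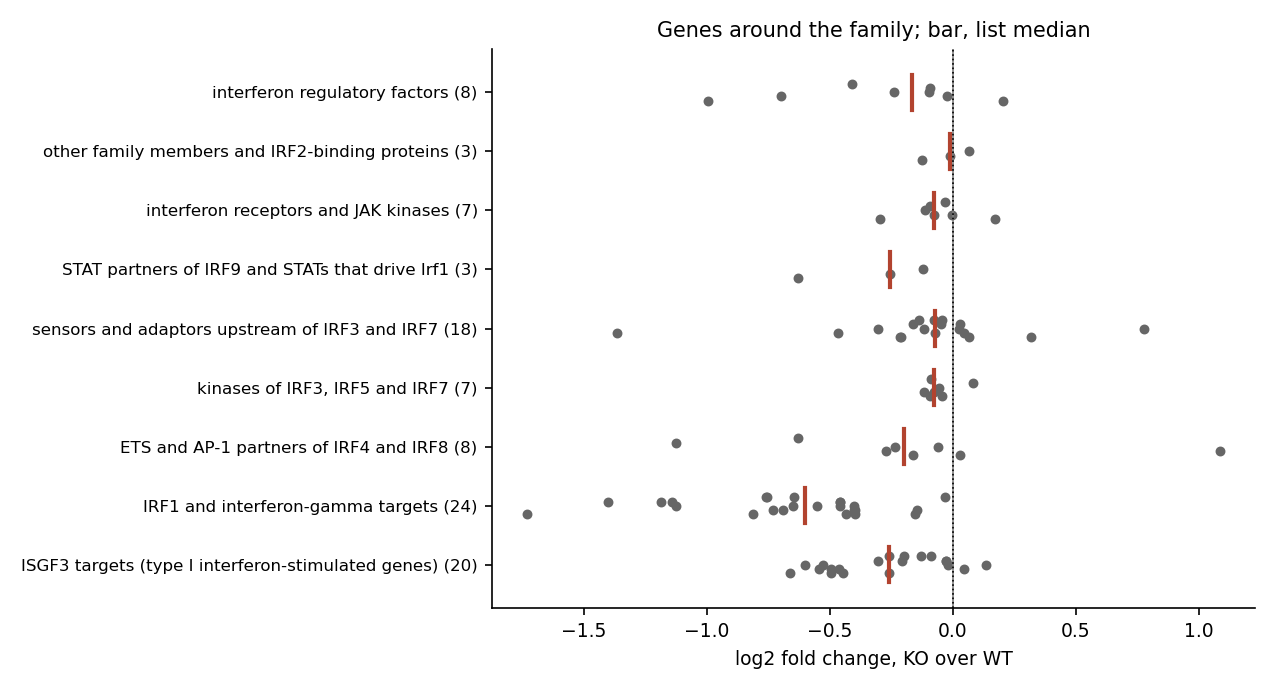
Log2 fold change, KO over WT, of every tested gene in the lists around the family (points), with the median of each list as a red bar, the number of tested genes in brackets and the median of all genes as a dotted line. All 24 points of the IRF1 and interferon-gamma target list lie below 0.

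In each library the target lists were set beside the members as log2 CPM minus the mean of the gene over 6 libraries. Irf1 was at -0.64, -0.29 and -0.55 in KO against 0.79, 0.44 and 0.24 in WT. The median of the IRF1 and interferon-gamma target list was -0.29, -0.18 and -0.41 in KO against 0.61, 0.10 and 0.24 in WT. Both were highest in WT replicate 1, and within KO both were nearest 0 in replicate 2. Within WT, Irf1 was lowest in replicate 3 and the list in replicate 2. The part of IRF1 in the values of the list was not tested. The ISGF3 list was at -0.08, -0.12 and -0.18 in KO against 0.32, 0.03 and 0.06 in WT. Irf7, itself a gene that interferon induces, was at 0.26, 0.0018 and 0.04 in KO against 0.04, -0.10 and -0.25 in WT.

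**Figure D5:**
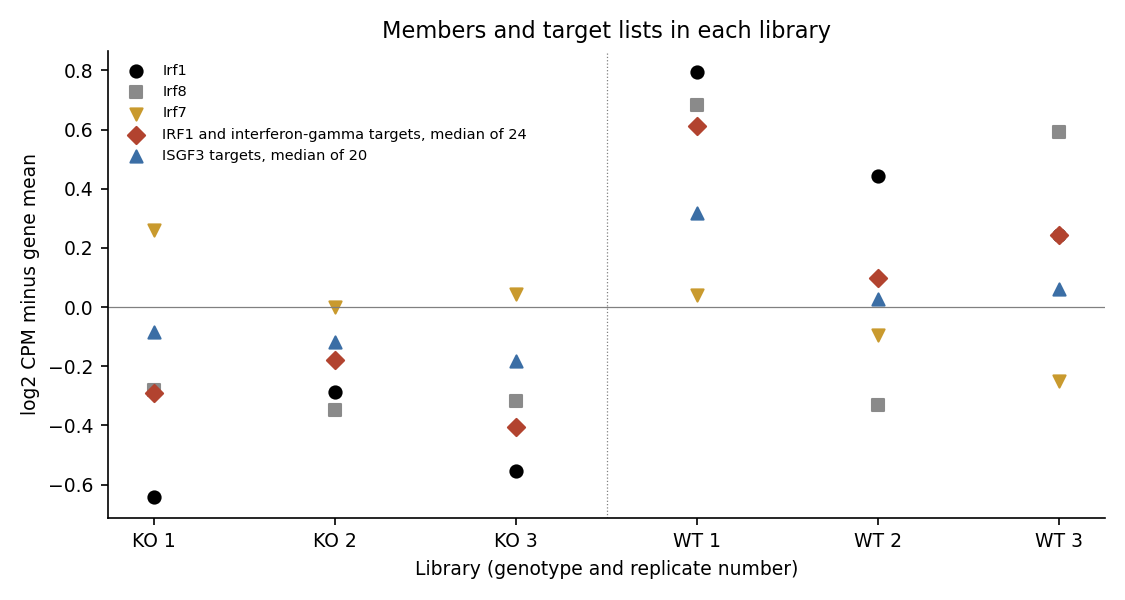
Log2 CPM minus the gene mean in each KO library (left) and each WT library (right) for Irf1, Irf8 and Irf7. The IRF1 and interferon-gamma target list and the ISGF3 target list are shown as medians. Irf1 and both target lists lie below 0 in all KO libraries and above 0 in all WT libraries, and Irf7 does not.

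The 3 genes most like Irf1 were Ltb, Serpina3g and Cd74, by the smallest mean absolute difference of these centred values over 6 libraries, at 0.101, 0.108 and 0.126 against a median of 0.500 over 12104 genes of at least 1 CPM. Ltb, which encodes lymphotoxin beta, was at 1.78 ± 0.221 CPM in KO and 3.41 ± 0.824 CPM in WT, and Cd74, the invariant chain of MHC class II, at 436 ± 74.4 CPM in KO and 730.1 ± 160 CPM in WT (SD, n = 3 each). Those most like Irf8 were Ube2l3, Zfp451 and Ncapg, at 0.0637, 0.0897 and 0.102. Ube2l3, a ubiquitin-conjugating enzyme gene, was at 51.4, 51.1 and 48.1 CPM in KO against 93.2, 48.6 and 103 CPM in WT, with WT replicate 2 again at the KO level. For Irf7 they were Fam126b, Arrb2 and Atp6v0c, at 0.0191, 0.0395 and 0.0438 against a median of 0.162.

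Several members are also used by other cells, and in bulk RNA fewer cells of a type and less RNA per cell cannot be told apart. Conventional dendritic cells, which need Irf8 or Irf4, were looked for by 6 markers, which summed to 11.6 to 14.2 CPM in KO and 14.3 to 16.9 CPM in WT, so KO was lower without overlap. Most of that sum was Ccr7, and the other 5 markers summed to 3.50, 3.73 and 3.69 CPM in KO against 4.65, 3.54 and 3.74 CPM in WT, with overlap. In the sum of all 6 markers WT replicate 2 was the lowest of WT at 14.3 CPM, and Cd209a was at 0 in 5 of 6 libraries. Ccr7, the migration receptor, was at 9.34 ± 1.33 CPM in KO and 11.7 ± 1.27 CPM in WT (edgeR adjusted p = 0.462), and Xcr1 at 0.0725 ± 0.0836 CPM in KO and 0.199 ± 0.126 CPM in WT (edgeR adjusted p = 0.730). Plasmacytoid dendritic cells, known for high Irf7 and Irf8, had the defining marker Siglech at 0 in all libraries, which allows up to 3 counts in each. Their 6 markers summed to 14.01 to 15.8 CPM in KO and 9.27 to 14.2 CPM in WT. Most of that was Tcf4, at 12.4 ± 1.11 CPM in KO and 8.66 ± 1.85 CPM in WT (edgeR adjusted p = 0.315). Tcf4 was higher in KO without overlap, as were 8.68% of all genes. Ccr9 went the other way, at 0.821 ± 0.225 CPM in KO and 1.23 ± 0.394 CPM in WT (edgeR adjusted p = 0.638). The 7 B and plasma cell markers summed to 195 to 238 CPM in KO and 234 to 271 CPM in WT, nearly all of it Sdc1 (edgeR adjusted p = 0.326). The others of that list, the B cell factor Pax5 among them (edgeR adjusted p = 0.685), were at 0.93 CPM or less in every library.

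T and NK cells are the usual source of interferon-gamma. Their 8 markers summed to 10.2 to 10.5 CPM in KO and 11.9 to 14.8 CPM in WT, again lower in KO without overlap. Of the 6 that were tested, 2 lay below WT without overlap in KO (8.89% of all genes did) and 4 overlapped. Cd3g, a T cell receptor subunit, was at 1.12 ± 0.106 CPM in KO and 2.13 ± 0.0646 CPM in WT (edgeR adjusted p = 0.154), and Cd4 at 3.39 ± 0.466 CPM in KO and 4.97 ± 0.211 CPM in WT (edgeR adjusted p = 0.252). Fibroblast and mesothelial markers, 8 genes, summed to 58.4 to 72.4 CPM in KO and 78.1 to 82.4 CPM in WT, also without overlap. By gene, 2 of the 8 lay below WT without overlap in KO and 6 overlapped. Of this list, Pdgfra was at 10.2 ± 0.905 CPM in KO and 15.04 ± 0.693 CPM in WT (edgeR adjusted p = 0.0994). Krt19 was at 0.488 ± 0.209 CPM in KO and 1.39 ± 0.451 CPM in WT (edgeR adjusted p = 0.291). The part of these cells in the lower Irf1, Irf8, Irf5 and Irf9 values was not tested. The 8 macrophage markers summed to 4658 to 4755 CPM in KO and 4518 to 4705 CPM in WT, with overlap. Of these, the integrin gene Itgam was at 513 ± 91.6 CPM in KO and 327 ± 91.4 CPM in WT (edgeR adjusted p = 0.344), and the growth factor receptor gene Csf1r at 965 ± 4.45 CPM in KO and 1021 ± 33.01 CPM in WT (edgeR adjusted p = 0.394). No marker of any list passed over all genes.

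Counts of some members can include reads of a neighbour, since the use of strand is not stated. Irf1 shares 135 exonic bases (3.40% of its exons) with Gm17334 on the opposite strand, which was at 3.35 ± 0.711 CPM in KO and 5.88 ± 0.176 CPM in WT (log2 fold change -0.81, edgeR adjusted p = 0.152), and its part in the Irf1 values was not tested. Irf3 shares 88 with Bcl2l12 and Irf7 shares 45 with Phrf1, both on the opposite strand, and Irf9 shares 123 with Rnf31 on its own strand. These neighbours were at 3.86 ± 0.545, 39.7 ± 8.87 and 25.8 ± 0.594 CPM in KO and at 3.18 ± 0.731, 41.2 ± 6.94 and 26.4 ± 2.73 CPM in WT, and all 3 overlapped between groups. Of the sequences of 50 bases in Irf9, 1.82% also occurred in other annotated genes, which included Abcb4 and Brca2 besides Rnf31. Their part in the Irf9 values was not tested. Irf2, Irf4 and Irf8 shared neither exonic bases nor any sequence of 50 bases with another annotated gene.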

How the data were processed

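Poly(A) RNA of mouse peritoneal macrophages was sequenced as paired-end Illumina libraries, per the labels' protocols, with 3 libraries per genotype. The submitters' processing notes list HISAT2 2.0. The counting tool, strand setting, annotation and build were not given in the sources used here. Raw count columns were deposited, whole numbers with no normalization. FPKM columns, so named per the file headers, hold what the authors scaled to length and depth. Another 12 per-sample columns fit no label of the 6 libraries and were left unused. Coordinates are as deposited. They equal GENCODE M21 (GRCm38) for 23625 of 27240 genes and for every member except Irf1.

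Genes were filtered by filterByExpr (16239 kept), scaled by TMM and tested two-sided with edgeR 4.0.16 (R 4.3.3), quasi-likelihood, genotype as the only term, with Benjamini-Hochberg adjustment over all genes and a threshold of 0.05. The fit was tested on simulated data with known changes. Intervals are at the 95% level and cover this fit only. Between libraries of 1 group the chi-square over genes was 39.7 to 46.5 times its degrees of freedom, and none was counted as a duplicate. Alternatives were RLE factors, no filter, DESeq2 1.42.0, limma 3.58.1 on log2(FPKM + 1) and log2(FPKM + 0.1), sample weights, a replicate block, the total without mitochondrial, ribosomal RNA and 2 shared-read genes, and leaving out each library.

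The members and lists were chosen with earlier results of these data known. Genes named are the members, Dclk1, per list up to 3 genes past the threshold or else the 2 of smallest p, and the 3 genes of most like pattern to Irf1, Irf7 and Irf8, without predicted or clone-named genes; 1 gene that this rule names is not reported here. Spi1, Adgre1, Cd68, Fcgr1, Gata6, Siglech, Cd209a, Ifnb1, Tlr4, Tlr7, Traf3 and the genes overlapping members were added after their values were seen. Upstream sequences are from RefSeq (GRCm38.p6).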

Additional observations from a re-analysis of the deposited data

How the results depend on the processing

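The fitted directions of Irf1, Irf3, Irf5, Irf7, Irf8 and Irf9 were the same under all 15 alternatives. Irf1 and Irf5 passed only with DESeq2 (log2 fold changes -0.996 and -0.41), and the cause was not tested. Irf8 passed only without WT replicate 2, at -0.95, and its values without 1 library ranged from -0.95 to -0.52. Near 0, the sign of Irf2 turned without WT replicate 1 (range without 1 library -0.0704 to 0.0161), and that of Irf4 turned without WT replicate 1 and without KO replicate 2 (range -0.25 to 0.17). Irf4 did not reach the FPKM filter and has no value in 2 of the alternatives. Over all genes 7 passed with no filter, 457 with DESeq2, 3 with limma on log2(FPKM + 1) without a filter, 22 with sample weights and 7 with mitochondrial and shared-read genes left out. Leaving out 1 library gave 7 (without WT replicate 1) to 35 genes (without KO replicate 1), with 24 without WT replicate 2. Of the pathway lists 29 genes passed with DESeq2, which called 2.81% of all genes. Among these 29, 17 were in the IRF1 and interferon-gamma target list and 7 in the ISGF3 list. Without 1 library 0 to 1 passed, namely Tlr7 without WT replicate 1 and Psmb10 without WT replicate 2. With the replicate number as a block 3 genes passed, and Irf1 had a log2 fold change of -0.99 (edgeR adjusted p = 0.190). Every library correlated best with its own number, which is a hint from the data and not the design, but the correlations of their deviations were only 0.0173 to 0.0488 and the numbers were not taken to pair them. The Irf1 to Irf2 ratio (log2 difference -0.96) ranged from -1.04 to -0.85 and the Irf7 to Irf3 ratio (0.29) from 0.14 to 0.46. With 3 libraries a group, small changes of weak genes such as Irf4 cannot be resolved.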

Other observations

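Some genes of the pathways around the family differed between libraries of the same genotype more than between genotypes, as Irf8 did. Tlr4, the receptor of lipopolysaccharide, was at 16.5, 18.1 and 14.4 CPM in KO against 89.3, 20.01 and 17.2 CPM in WT, with WT replicate 1 high. Tlr7, which signals to IRF5 and IRF7, was at 87.0, 85.4 and 82.5 CPM in KO against 91.4, 26.7 and 30.9 CPM in WT, with WT replicates 2 and 3 low. Traf3, an adaptor that IRF3 activation needs, was at 31.3, 31.4 and 33.6 CPM in KO against 34.6, 27.9 and 70.7 CPM in WT, with WT replicate 3 high. None of these genes passed in the fit to all libraries (edgeR adjusted p = 0.493, 0.596 and 0.669). They were picked after their values were seen, and the library that stood apart was not the same one for each. How the reads were assigned to genes is not stated in the sources used here, and its part in these steps was not tested.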
